A study of Mus musculus with 8 samples.

Results

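The eIF4F complex brings the small ribosomal subunit to the capped 5′ end of an mRNA. In it, eIF4E holds the cap, the helicase eIF4A unwinds the leader with the help of eIF4B and eIF4H, and the scaffold eIF4G joins them to the poly(A)-binding protein and to the ribosome. The 4E-binding proteins compete with eIF4G for eIF4E and let go of it when mTOR phosphorylates them, a switch much studied at synapses. The 10 genes described here, 10 of the 18301 of the table, were taken by symbol for their role in this complex and not by a threshold on any measured value, although earlier results of these data were known. They are the cap-binding proteins Eif4e and Eif4e2, the 4E-binding proteins Eif4ebp1 and Eif4ebp2, the eIF4G relative Eif4g2, the helicases Eif4a1 and Eif4a2, their cofactors Eif4b and Eif4h, and the poly(A)-binding protein Pabpc1.

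Ribosome footprints, the stretches of mRNA that ribosomes protect from nuclease, and total RNA were measured in mouse neurons grown from CGR8 embryonic stem cells and taken at day 8 in vitro. One set of cultures is labelled as an Eif4g1/Eif4g3 double knockout (DKO) and the other as wildtype (WT). Every culture received cycloheximide, which stalls elongating ribosomes, at 100 µg/ml for 5 minutes. There were 2 libraries in each of 4 groups, namely DKO footprints, WT footprints, DKO RNA and WT RNA, and p-values reflect only how these libraries scatter, which may be technical. Each culture has a code whose meaning the labels leave unsaid (a clone or a separate differentiation): WT replicate 1 and both DKO cultures carry a c with numbers, and WT replicate 2 is coded WT. Although the series title names microexons of eIF4G, gene sums cannot tell an excised short exon from an intact one.

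Footprint libraries held 10490535 to 19753419 estimated counts and RNA libraries 14762047 to 44786643. All 10 genes passed the filter on low counts. Eif4g1 stood at 154 and 288 CPM (counts per 1000000, with TMM-scaled library sizes) in DKO footprints and at 300 and 263 CPM in WT footprints, and it was low in the RNA of DKO replicate 1 as well, at 125 CPM against 305 CPM in DKO replicate 2. Eif4g3 stood at 164 and 172 CPM in DKO footprints and 169 and 153 CPM in WT footprints, so that reads of both targeted genes remained in the libraries labelled DKO. The cells are labelled cortical and glutamatergic. Slc17a6, a vesicular glutamate transporter, stood at 234 and 194 CPM in DKO footprints and 166 and 74.3 CPM in WT footprints, with the DKO values above the WT values in RNA too, whereas Slc17a7 and Tbr1, which mark cortical excitatory neurons, stayed at or below 1.05 CPM, and the 3 GABAergic markers summed to 531 and 564 CPM in DKO footprints and 604 and 543 CPM in WT footprints. In both assays both DKO sums lay below both WT sums for 4 oligodendrocyte-lineage markers (264 and 319 CPM in DKO footprints, 379 and 541 CPM in WT footprints) and for 2 markers of dividing cells (120 and 108 CPM in DKO footprints, 138 and 171 CPM in WT footprints). WT replicate 2, the culture with the other kind of code, stood apart: the first principal component placed it at 36.1, against -14.7 to -10.3 for the other footprint libraries, and at 30.8 in RNA, against -14.1 to -8.25. It had the lowest Slc17a6, and the 4 fibroblast and mural markers summed to 471 and 150 CPM in DKO footprints and to 275 and 695 CPM in WT footprints, the last value in WT replicate 2. These shifts in cell type markers are given as context, and whether any result below moves with them was not tested.

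The annotated starts of translation show how Eif4g2 differs from the other 9 genes. The bases around each start codon, from GENCODE M21 transcripts (GRCm38), are given below 5′ to 3′ for 7 of them, with the start codon in capitals.
Eif4g2: agccgccaaaGTGgaga
Eif4e: tcgatctaagATGgcga
Eif4a1: tctaaggatcATGtctg
Eif4a2: ttttcggatcATGtctg
Eif4h: gagacggcaaATGgcgg
Eif4ebp1: tgcaggagacATGtcgg
Pabpc1: ccgtgccgagATGaacc
Eif4g2 is annotated with GTG and the other 9 with ATG. The background was 27937 coding isoforms of the table with complete ends and at least 10 bases before the start. Among them 3 began with GTG, which is 0.011%, and 2 of these belong to Eif4g2. A purine stood 3 bases before the start in 9 of the 10 genes, the exception being Eif4h, and in 83.8% of the 27937 isoforms. Eif4a1 and Eif4a2, 2 closely related helicases, share the bases from 5 before the start codon to 4 after it. Such matches describe the annotation and are no measure of initiation.

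**Figure D1:**
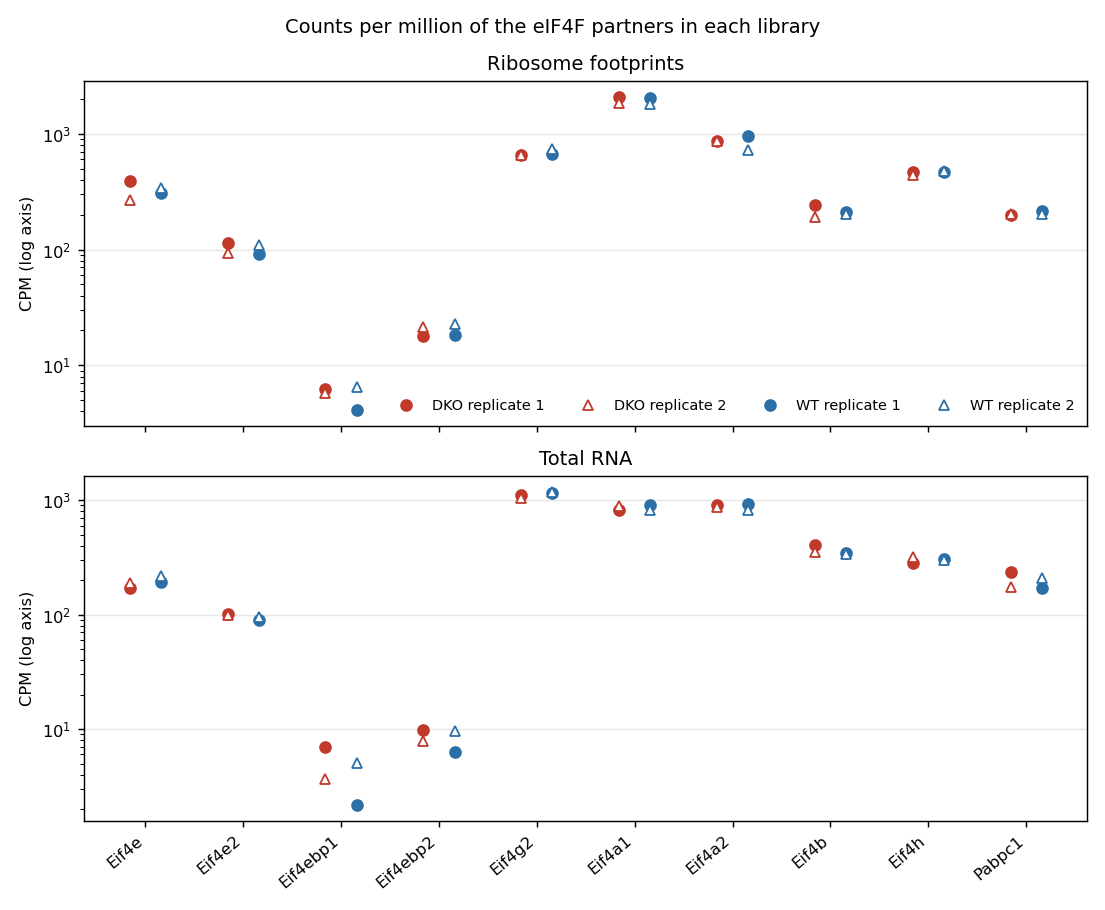
CPM of the 10 genes in each of the 4 footprint libraries (upper panel) and 4 RNA libraries (lower panel), on log axes, with each point 1 library, DKO in red and WT in blue. Eif4a1 footprints lie between 1813 and 2089 CPM in all 4 libraries, and Eif4ebp1 has the lowest mean of the 10 in each panel.

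The first comparison asked whether the partners of the targeted scaffolds had more or fewer footprints or transcripts in DKO than in WT neurons. None of the 10 was called in footprints, in RNA or in footprints relative to RNA (edgeR quasi-likelihood test, Benjamini-Hochberg adjusted p under 0.05), and none had an unadjusted p under 0.05. DESeq2 and limma-voom called 0 of the 10 as well, and so did the fit without WT replicate 2. In such bulk samples fewer cells of a type and less RNA per cell cannot be told apart. Few genes of any kind were called: 0.00775% of the 12898 tested in footprints, 0.0155% in RNA and 0% in footprints relative to RNA, so that 0 of 10 lies at the background. Without WT replicate 1, which leaves WT replicate 2 as the only WT culture, assumed to vary like the rest, 3.93% of 13215 genes were called in footprints and 3.58% in RNA, and 0 of the 10. The median log2 fold change of the 10 was 0.02 in footprints, 0.07 in RNA and -0.06 in footprints relative to RNA, beside 0.00, -0.00 and 0.01 over all genes tested. A p that misses the threshold does not show equal levels, so 95% intervals are given below.

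Eif4e, the cap-binding protein, lies on chromosome 3 (138526179 to 138559696, GRCm38, ENSMUSG00000028156). Its footprints stood at 388 and 267 CPM in DKO and at 309 and 339 CPM in WT, and its RNA at 172 and 189 CPM in DKO and 192 and 216 CPM in WT. The DKO footprint libraries lie on either side of both WT libraries, while both DKO RNA values lie below both WT values. The log2 fold change was 0.01 ± 0.16 (SE) in footprints, with an interval from -0.34 to 0.37 (adjusted p = 0.996, edgeR), and -0.18 ± 0.16 in RNA, with an interval from -0.53 to 0.17 (adjusted p = 0.906, edgeR). In footprints, though not in RNA, the difference between the DKO cultures was larger than that between the genotypes. Without DKO replicate 1 the log2 fold change in footprints was -0.27, and without DKO replicate 2 it was 0.27.

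Eif4e2, also called 4EHP, binds caps without binding eIF4G and represses its targets (chromosome 1, 87213914 to 87240488, ENSMUSG00000026254). It stood at 113 and 93.3 CPM in DKO footprints and 91.9 and 109 CPM in WT footprints, so the groups overlapped. In RNA it stood at 101 and 98.8 CPM in DKO and 90.7 and 95.3 CPM in WT, where both DKO values were above both WT values (log2 fold change 0.10 ± 0.11, edgeR adjusted p = 0.931).

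The 4E-binding proteins had the lowest counts of the 10. Eif4ebp2, the main form in brain (chromosome 10, 61428491 to 61452661, ENSMUSG00000020091), had 171 and 363 footprint counts in DKO and 327 and 315 in WT, which is 17.8 and 21.5 CPM in DKO and 18.4 and 22.9 CPM in WT. Its RNA stood at 9.87 and 7.83 CPM in DKO and 6.26 and 9.60 CPM in WT, and the groups overlapped in both assays. Eif4ebp1 (chromosome 8, 27260329 to 27276674, ENSMUSG00000031490) had 60 and 98 footprint counts in DKO and 73 and 90 in WT. Its RNA stood at 6.94 and 3.68 CPM in DKO and 2.17 and 5.07 CPM in WT. The highest and the lowest RNA value therefore came from different genotypes, with the other DKO and WT cultures in between. Its log2 fold change in RNA, 0.55 ± 0.42, was the largest of the 10, with an interval from -0.41 to 1.51 (adjusted p = 0.891, edgeR). It was 0.0033 without DKO replicate 1 and 1.34 without WT replicate 2, which is also the culture with the most fibroblast and mural markers. For Eif4ebp2 the interval in footprints ran from -0.52 to 0.39.

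Eif4g2, also known as DAP5 or p97, keeps the eIF4A- and eIF3-binding parts of eIF4G and lacks the eIF4E- and PABP-binding ones (chromosome 7, 111067750 to 111083030, ENSMUSG00000005610). It stood at 657 and 656 CPM in DKO footprints and 675 and 734 CPM in WT footprints. In RNA it stood at 1120 and 1054 CPM in DKO and 1155 and 1189 CPM in WT. Both DKO values lay below both WT values in each assay, with a log2 difference of -0.10 ± 0.11 in footprints (interval -0.35 to 0.14, edgeR adjusted p = 0.908) and -0.11 ± 0.11 in RNA (interval -0.35 to 0.13, adjusted p = 0.925). The upper end of the interval in footprints, 0.14, rests on the scatter of 2 libraries a group, which may be technical.

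Eif4a1, the main helicase of dividing cells, lies on chromosome 11 (69666936 to 69672423, ENSMUSG00000059796). It stood at 2089 and 1838 CPM in DKO footprints and 2024 and 1813 CPM in WT footprints, and at 822 and 882 CPM in DKO RNA and 907 and 815 CPM in WT RNA. Eif4a2, its paralog and the form enriched in neurons (chromosome 16, 23107444 to 23114136, ENSMUSG00000022884), stood at 873 and 869 CPM in DKO footprints and 951 and 731 CPM in WT footprints. Its RNA was 902 and 879 CPM in DKO and 932 and 815 CPM in WT. The groups of both helicases overlapped in both assays, and in Eif4a2 the WT cultures spread more widely than the DKO ones. The log2 fold changes in footprints were 0.03 ± 0.13 for Eif4a1 and 0.05 ± 0.14 for Eif4a2. Without WT replicate 2 they were -0.05 and -0.13.

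Eif4b, an RNA-binding cofactor of eIF4A and a target of S6 kinase (chromosome 15, 102073773 to 102097173, ENSMUSG00000058655), stood at 243 and 191 CPM in DKO footprints and 211 and 204 CPM in WT footprints. In RNA both DKO values, 405 and 350 CPM, lay above both WT values, 344 and 337 CPM, with a log2 difference of 0.15 ± 0.13 (interval -0.13 to 0.42, edgeR adjusted p = 0.898). Eif4h, a smaller cofactor with a related RNA-binding domain (chromosome 5, 134619721 to 134639490, ENSMUSG00000040731), stood at 470 and 438 CPM in DKO footprints and 471 and 479 CPM in WT footprints. Its RNA stood at 285 and 316 CPM in DKO and 305 and 301 CPM in WT. The log2 fold change of its footprints was -0.07 ± 0.10, with an interval from -0.29 to 0.16.

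Pabpc1, which binds the poly(A) tail and eIF4G (chromosome 15, 36595661 to 36609668, ENSMUSG00000022283), stood at 200 and 202 CPM in DKO footprints and 213 and 201 CPM in WT footprints. Its RNA was more scattered, at 235 and 174 CPM in DKO and 170 and 207 CPM in WT, and the genotypes overlapped. The log2 fold change was -0.04 ± 0.14 in footprints and 0.12 ± 0.14 in RNA.

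**Figure D2:**
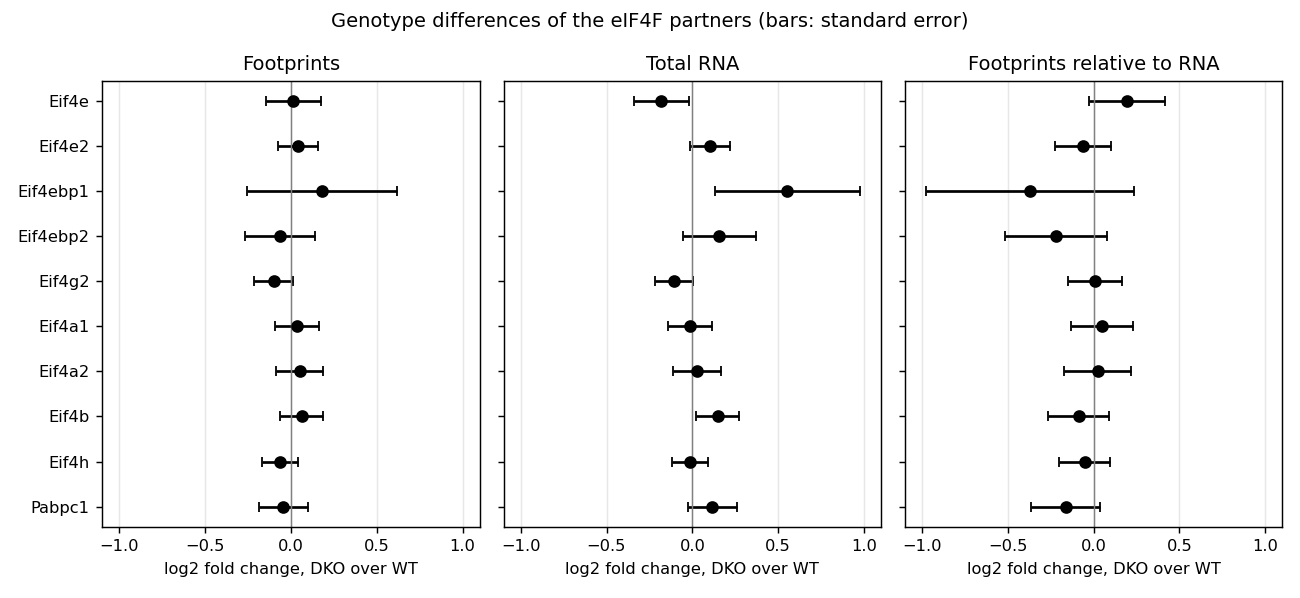
Log2 fold changes of DKO over WT for the 10 genes in footprints, in RNA and in footprints relative to RNA, with bars of 1 standard error from the fit of all 8 libraries. The values lie between -0.10 and 0.18 in footprints, and the widest bars are those of Eif4ebp1.

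Counting genes whose DKO and WT values did not overlap gave 2 of 10 in footprints, where Eif4g2 and Eif4h were lower in DKO, beside 32.5% of all genes tested (16.3% higher, 16.2% lower). In RNA there were 4 of 10, with Eif4e2 and Eif4b higher and Eif4g2 and Eif4e lower, beside 38.4% of all genes (19.6% higher, 18.9% lower). In footprints relative to RNA there was 1 of 10, Eif4b, lower in DKO, beside 26.9% (13.8% higher, 13.2% lower). These shares lie near or under the background. Over the 8 libraries, after centring within each assay, the SD of log2 CPM ran from 0.06 for Eif4h, at the percentile 5.27 of all genes tested, and 0.08 for Eif4g2 to 0.25 for Eif4ebp2 and 0.54 for Eif4ebp1, at the percentile 95.4.

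The second comparison set footprints against RNA within each genotype. Eif4a1 had 2.54 and 2.08 times as many CPM in footprints as in RNA in the DKO cultures, and 2.23 and 2.22 times in the WT cultures. Eif4ebp2 had 1.80 and 2.74 times in DKO and 2.94 and 2.38 times in WT, Eif4e 2.26 and 1.42 times in DKO and 1.61 and 1.57 times in WT, and Eif4h 1.65 and 1.38 times in DKO and 1.54 and 1.59 times in WT. Eif4g2 and Eif4b went the other way in every culture. The ratio of Eif4g2 was 0.587 and 0.623 in DKO and 0.584 and 0.617 in WT, and that of Eif4b 0.600 and 0.545 in DKO and 0.614 and 0.604 in WT. These 6 genes passed the test in each genotype, 4 higher and 2 lower in footprints, while Eif4e2, Eif4a2, Eif4ebp1 and Pabpc1 did not.

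Among all genes tested, 65.4% were called in DKO (32.1% higher, 33.3% lower) and 65.1% in WT (31.4% higher, 33.8% lower), so that 6 of 10 is near the background. The log2 difference between footprints and RNA was 1.20 ± 0.13 in DKO and 1.16 ± 0.13 in WT for Eif4a1 (adjusted p = 7.71e-06 and 1.06e-05, edgeR). For Eif4ebp2 it was 1.14 ± 0.21 in DKO and 1.36 ± 0.21 in WT, and for Eif4g2 -0.73 ± 0.11 in each genotype. For Eif4b it was -0.80 ± 0.13 in DKO and -0.72 ± 0.13 in WT. The median over the 10 was 0.09 in DKO and 0.32 in WT, beside -0.01 and -0.02 over all genes. The middle values in WT were those of Pabpc1 (0.135) and of Eif4ebp1, which has the widest standard error of the 10. Taken gene by gene, the median difference between the genotypes in footprints relative to RNA was -0.06. In Eif4ebp1 the difference was 0.51 ± 0.44 in WT (adjusted p = 0.328) and became a call with the culture as a replicate block (0.58, adjusted p = 0.0238). That of Eif4ebp2 in DKO lost its call without both libraries of DKO replicate 2 (0.85, adjusted p = 0.0637).

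**Figure D3:**
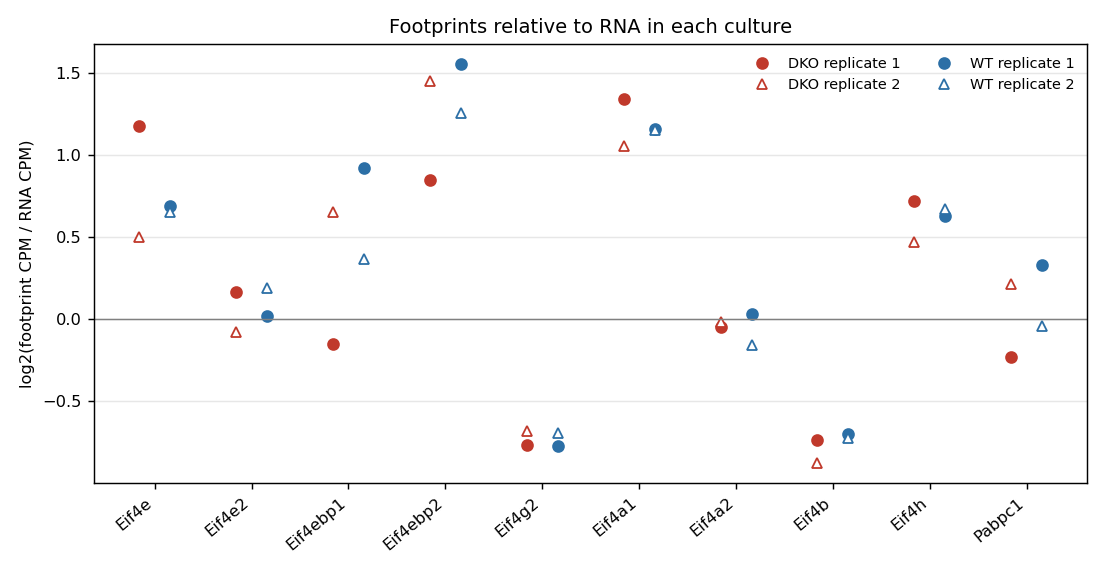
Log2 ratio of footprint CPM to RNA CPM in each culture, DKO in red and WT in blue, with 1 point a culture. Eif4a1, Eif4ebp2, Eif4e and Eif4h lie above 0 in all 4 cultures, and Eif4g2 and Eif4b lie below it in all 4.

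The scale and the isoforms summed decided several of these values. Scaling each assay on its own moved the median log2 difference of all genes to -0.24 in DKO and -0.25 in WT and the split of calls to 3037 higher and 5584 lower in DKO, against 4145 and 4289 with all libraries scaled together. In WT that split was 2982 and 5592, against 4045 and 4356. The calls of the 6 genes held under it, and the small values of Eif4e2 in both genotypes, of Eif4ebp1 in DKO and of Pabpc1 in WT changed sign. When only isoforms annotated as protein coding were summed, Eif4h turned from higher to lower in footprints, at -0.73 in DKO and -0.56 in WT (adjusted p = 0.000702 and 0.00341, edgeR). Eif4a2 became higher, at 1.46 in DKO and 1.73 in WT, and Eif4e lost its call, at 0.36 in DKO and 0.11 in WT (adjusted p = 0.0546 and 0.553). The calls of Eif4a1, Eif4ebp2, Eif4g2 and Eif4b kept their direction under it.

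kallisto spread the counts of these genes over different isoforms in the 2 assays. In Eif4h, a retained-intron isoform (Eif4h-204) took 59.9% of the footprints and 3.05% of the RNA, as means over 4 libraries. In Eif4e, the coding isoform Eif4e-202 and the retained-intron isoform Eif4e-203, of 292 bases, took 41.7% and 31.5% of the footprints but 0.88% and 0.68% of the RNA. Eif4e-204 took 66.7% of the RNA and 24.5% of the footprints. In Eif4a2, the coding isoform Eif4a2-224 took 58.6% of the footprints and 6.20% of the RNA. The principal isoform, Eif4a2-201, took 0.47% of the footprints and 3.43% of the RNA. The isoforms annotated for nonsense-mediated decay took 36.5% to 37.9% of the footprints and 66.5% to 69.7% of the RNA across libraries. Among them, Eif4a2-204 is annotated with 1086 coding bases, as is Eif4a2-224, so that these classes divide isoforms of equal coding length. In Eif4g2, the 560-base isoform Eif4g2-201 took 34.6% of the footprints and 0.10% of the RNA. In Eif4e2, Eif4e2-202, which has 20.7% of its 3394 bases in coding exons, took 50.8% of the RNA and 4.42% of the footprints. Eif4e2-204, with 64.3% of its length in coding exons, took 64.5% of the footprints and 36.6% of the RNA. Pabpc1-201 held 99.3% of the Pabpc1 footprints and 87.8% of its RNA, and Eif4b, Eif4ebp1 and Eif4ebp2 had 1 isoform each here.

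Every isoform matched to the annotation had a transcript support level of 1 to 3. The principal isoform of Eif4e (Eif4e-201, of 217 amino acids, support level 5) was not analysed here, and whether its reads were placed on the other 4 was not tested. The Eif4e isoforms analysed code for at most 185 amino acids. A footprint is short and can match several isoforms of a gene alike, so that the shares are estimates, and the part of the isoform set in them was not tested.

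**Figure D4:**
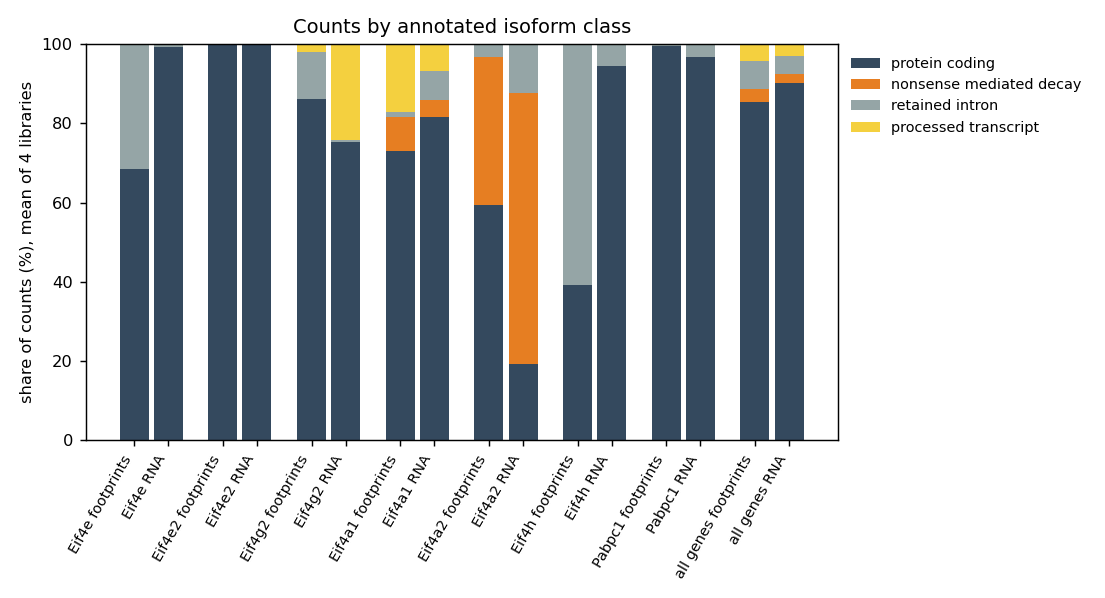
Share of counts by annotated isoform class, as the mean of 4 libraries, with footprints left of RNA for each of the 7 genes with more than 1 isoform and for all genes. Coding isoforms of Eif4h hold less than 45% of its footprints and over 93% of its RNA in each library, beside 85.2% to 85.8% of the footprints and 90.0% to 90.2% of the RNA of all genes.

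Between genotypes, isoform shares were compared for isoforms with at least 5% of a gene's counts, as a description with no test. In footprints 7 of 20 member isoforms had DKO and WT shares that did not overlap, beside 27% of all such isoforms. In RNA 15 of 19 did not overlap, beside 35.6%. These 15 came from Eif4a1, Eif4a2, Eif4e, Eif4e2, Eif4g2 and Eif4h, and several were separated by little. Eif4a1-213 took 82.9% and 83.0% in DKO and 77.6% and 82.4% in WT. Eif4e2-202 took 51.3% and 51.7% in DKO and 50.7% and 49.5% in WT. Coding isoforms of Eif4a2 together took 21.6% and 20.6% of its RNA counts in DKO and 17.3% and 17.4% in WT. Their shares of its footprints overlapped, at 60.78% and 58.81% in DKO and 58.78% and 58.92% in WT. In Eif4h RNA the isoform with the longer coding sequence, Eif4h-205, which codes for 20 more amino acids than Eif4h-201, took 22.2% and 24.9% of the counts of the pair in DKO and 28.1% and 29.9% in WT. In its footprints the shares were 54.12% and 54.68% in DKO and 54.10% and 48.67% in WT, where the lower DKO value and the higher WT value were all but equal. In Eif4e RNA, Eif4e-204 took 59.1% and 66.0% in DKO and 67.2% and 74.3% in WT. Eif4e-205 took 38.5% and 32.6% in DKO and 31.0% and 25.0% in WT. In footprints the shares of both isoforms overlapped, with Eif4e-204 at 31.4% and 20.3% in DKO and 18.5% and 27.8% in WT. The isoforms of a gene share its reads, so that a higher share of 1 lowers the others, and the 19 are not independent.

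Levels were compared between genes per length. In RNA, as TPM (counts per transcript length, scaled to a total of 1000000), Eif4g2 led with 1428 and 1271 TPM in DKO and 1603 and 1340 TPM in WT. Eif4a2, at 1166 and 1081 TPM in DKO and 1169 and 1026 TPM in WT, and Eif4a1, at 1064 and 1139 TPM in DKO and 1158 and 1013 TPM in WT, followed and overlapped with each other. Eif4e had a mean of 351 TPM over the 4 RNA libraries and Eif4h of 260 TPM. Pabpc1 (188 TPM) and Eif4b (182 TPM) overlapped, and Eif4e2 stood at 105 TPM. Eif4ebp1 (4.39 TPM) and Eif4ebp2 (2.84 TPM) were the lowest and overlapped. The first places rest on isoforms annotated as other than protein coding: the processed transcript Eif4g2-211 held 64.3% to 73.7% of the Eif4g2 TPM. With coding isoforms only, an alternative chosen after seeing the data, Eif4a1 led with a mean of 769 TPM, Eif4g2 (348 TPM) and Eif4e (343 TPM) overlapped, and Eif4a2 stood at 175 TPM, overlapping with Eif4b and Pabpc1.

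Footprints per coding length, counted on each coding isoform and scaled to the same total in each library, put Eif4a1 first (mean of 4 libraries 986) and Eif4g2 next (768), with overlapping ranges. Eif4e (423) and Eif4a2 (395) overlapped, and Eif4h followed at 215. Then came Eif4e2 (121), Eif4b (98.1) and Pabpc1 (90.2), each overlapping with its neighbour. Eif4ebp2 stood at 42.0 and 50.4 in DKO and 42.7 and 54.6 in WT, above Eif4ebp1 at 15.1 and 14.0 in DKO and 9.78 and 15.99 in WT, with no overlap. The 2 4E-binding proteins thus overlapped in RNA per transcript length and not in footprints per coding length. Eif4ebp2 has 360 coding bases in a transcript of 5784, and Eif4ebp1 has 351 in 1997. In CPM, with no division by length, mean RNA was 8.39 for Eif4ebp2 and 4.47 for Eif4ebp1. That is the reverse of their order in TPM, and these ranges overlapped too. With all footprints of a gene divided by its longest coding length, an alternative chosen after seeing the data, Eif4g2 stood at 193 to 219 over the libraries and Eif4h at a mean of 498, so that these places rest on the isoforms, while Eif4a1 stayed first at 1272.

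**Figure D5:**
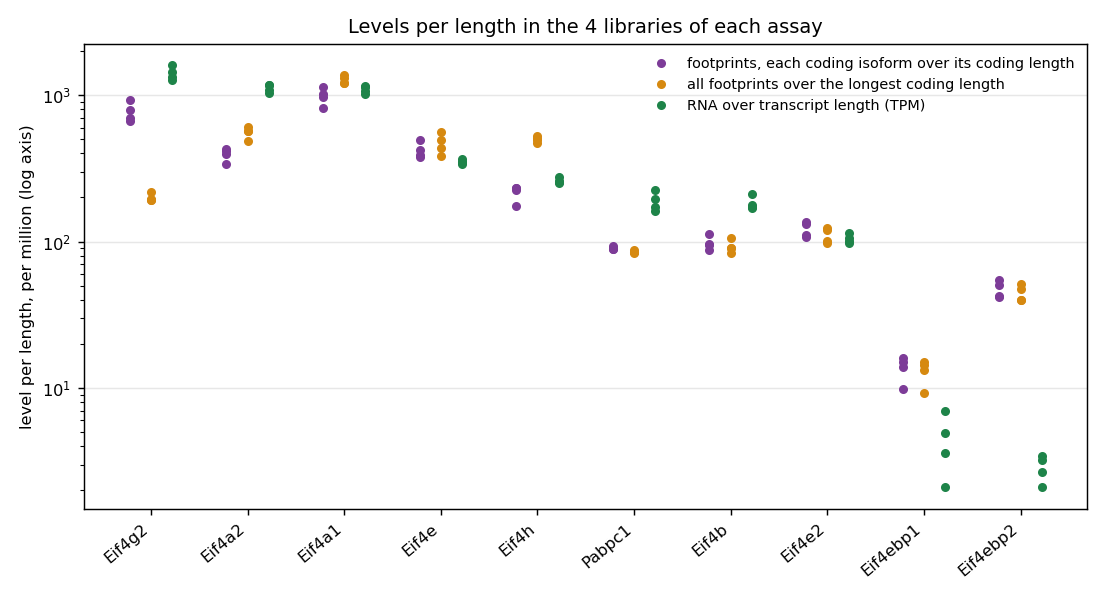
Levels per length in the 4 libraries of each assay on a log axis, with footprints per coding isoform in purple, all footprints over the longest coding length in orange and RNA in TPM in green, ordered by RNA. Eif4g2 has a mean of 768 by the first footprint measure and 193 to 219 by the other. Eif4ebp2 stands far higher in footprints, divided by 360 coding bases, than in RNA, divided by 5784 transcript bases. These divisors widen the gap, since its mean CPM was 20.1 in footprints and 8.39 in RNA.

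Near-identical copies bear on how firmly these levels are known. None of the 28-base stretches of the 10 coding sequences occurs in another gene of the table. In the whole annotation, 99.4% of those of Eif4a1 also occur in other annotated genes, with 97.7% in the pseudogene Eif4a-ps4, as do 80.45% of those of Eif4e and 53.3% of those of Pabpc1. For Eif4a2 the share was 40.45%, for Eif4ebp1 19.1% and for Eif4b 17.3%, and for Eif4e2, Eif4h, Eif4g2 and Eif4ebp2 it was at most 2.12%. Reads from such copies cannot be told apart from those of the gene itself. Some isoforms of the helicase genes also enclose small RNA genes. Eif4a1-206, a processed transcript around Gm24029, took 12.45% of the Eif4a1 footprints and 4.63% of its RNA. Eif4a2-214, around Snord2, took 2.56% of the Eif4a2 footprints and 1.17% of its RNA. In the others the RNA share was the larger. Eif4a1-211, also around Gm24029, took 0.0% of the footprints and 1.48% of the RNA, and Eif4a1-202 took 0.15% and 6.01%. Eif4a2-206 took 0.58% and 3.47%, and Eif4a2-220 took 0.07% and 2.87%. Around Snord2, Eif4a2-211 took 0.03% and 0.56%, and Eif4a2-219 took 0.0% and 0.02%. All of these isoforms count in CPM and not in the footprints per coding isoform.

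Of 26 other genes of the pathway, chosen as regulators and relatives of these factors, 24 were tested. None was called in DKO against WT in footprints, in RNA or in footprints relative to RNA (edgeR), and none had an unadjusted p under 0.05. In footprints the smallest p belonged to Mknk1, a kinase of eIF4E, at 19.9 ± 3.06 CPM in DKO and 16.4 ± 0.0591 CPM in WT (SD, n = 2 each; log2 fold change 0.27 ± 0.14, adjusted p = 0.849, edgeR), and to Eif4enif1, the shuttling factor of eIF4E (0.14 ± 0.09). In RNA they belonged to Eif4e3, a cap-binding relative, at 8.46 ± 0.809 CPM in DKO and 6.65 ± 0.0921 CPM in WT (log2 fold change 0.35 ± 0.18, adjusted p = 0.851, edgeR), and to the PABP-interacting Paip1 (-0.19 ± 0.11). In footprints relative to RNA they belonged to Eif4e3 (-0.35 ± 0.26) and Larp1 (-0.23 ± 0.19). The median log2 fold change of the 24 was 0.03 in footprints, -0.00 in RNA and 0.06 in footprints relative to RNA.

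Footprints against RNA gave 10 of the 24 higher and 8 lower in each genotype, beside the same background as above. Those with the smallest p in DKO were Pabpc4 (-1.26 ± 0.12), a cytoplasmic poly(A)-binding protein, Larp4b (-1.02 ± 0.10), Larp1 (1.32 ± 0.13), a regulator of mRNAs with a 5′ terminal oligopyrimidine tract, Eif4a3 (1.06 ± 0.11), the helicase of the exon junction complex, Gigyf2 (-0.84 ± 0.09), the partner of 4EHP, and Pdcd4 (1.03 ± 0.11), an inhibitor of eIF4A. In WT they were Larp1 (1.56 ± 0.13), Larp4b (-1.097 ± 0.096), Pabpc4 (-1.22 ± 0.12), Paip2b (-0.96 ± 0.10), an inhibitor of PABP, Eif4a3 (1.005 ± 0.112) and Pdcd4 (0.98 ± 0.11). Larp1 had 1 isoform here, and its footprints per coding isoform were 0 in all 4 libraries. All Larp1 values given here thus come from an isoform not annotated as protein coding. Paip2b stood at 2.31 to 5.64 in footprints per coding isoform and at 87.7 to 96.7 TPM in RNA. These measures are unlike, since the first counts coding isoforms only and divides by coding length. In CPM, over all its isoforms, Paip2b had 75.0 and 80.3 in DKO footprints and 81.1 and 71.5 in WT footprints. Its RNA stood at 142 and 145 CPM in DKO and 151 and 147 CPM in WT.

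By the smallest root mean square difference in centred log2 CPM scaled to unit SD over the 8 libraries, the genes most like Eif4ebp1 were Mybpc1 (0.25), Tmc4 (0.25) and Apba3 (0.30). Those most like Eif4ebp2 were Smad9 (0.15), Papola (0.18) and Gnas (0.26). These are the nearest of 12898 genes over 8 points from 4 cultures and describe those libraries.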

How the data were processed

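The submitters' processing notes list kallisto, Bowtie, Trimmomatic and FastQC with no version; for build, transcript set and strand setting: not given in the sources used here. The authors deposited expected counts (kallisto's estimated counts, whole numbers) per Ensembl transcript for all 8 libraries. Of 60528 transcripts, 60444 matched GENCODE M21 (GRCm38), and the other 84 (at most 0.151% of a library) were left out. Counts were summed per gene.

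All 8 libraries entered 1 edgeR 4.0.16 quasi-likelihood fit (R 4.3.3, limma 3.58.1) with 4 group means, TMM scaling and robust dispersions, leaving 4 residual degrees of freedom. It kept the 12898 genes that passed filterByExpr (minimum count 10) in both assays. A Benjamini-Hochberg adjusted p under 0.05 counted as a call, and the intervals come from the moderated standard error. CPM used TMM-scaled library sizes. Replicates differed by more than sampling noise in every group (chi-square per degree of freedom 8.9 to 16.5). The procedure was tested on simulated data, and no error rate or power from that test is given here. The isoform shown for each start is the principal one with complete ends or, for Eif4g2, the longest.

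Footprint and RNA libraries of the same genotype and number carry matching culture codes, except that the code of DKO replicate 2 is spelt differently between assays. Their deviations correlated at 0.18 in DKO and 0.56 in WT, so the culture was tried as a replicate block. Between DKO and WT a number is no pairing.

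The 10 genes, the pathway list and the tests were chosen with earlier results of these data known. Named genes are the 10, Eif4g1 and Eif4g3, pathway genes called (at most 6 a contrast by p) or, where none was, the 2 of lowest p, and the 3 nearest genes of the 2 members with the largest SD. Alternatives tried were coding isoforms only, DESeq2 1.42.0, limma-voom, RLE scaling, TMM per assay, a minimum mean count of 50, no filter, the replicate blocks, fits of 1 assay and leaving out each library or culture. A crossed block, another footprint length and RNA levels of coding isoforms were added after seeing the data.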

Additional observations from a re-analysis of the deposited data

How the results depend on the processing

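The count of members called was 0 in each of the 3 genotype comparisons under every alternative run, and lay between 5 and 7 of 10 in footprints over RNA. The replicate block of the culture gave 6 members in DKO and 7 in WT, where Eif4ebp1 was added (0.58). The number as a replicate block within 1 assay, where the numbers do not pair DKO with WT cultures (correlation -0.14 in footprints and in RNA), called 0 members, turned Eif4e in footprints to -0.012 and called 24 genes in RNA where the fit of the same 4 libraries without it called 1. With crossed numbers 0 members were called, and Eif4e in footprints was -0.012.

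Summing coding isoforms only turned Eif4a1 to -0.096 (footprints relative to RNA), -0.034 (footprints) and 0.062 (RNA), Eif4a2 to -0.27 (footprints relative to RNA), 1.46 (footprints over RNA in DKO) and 1.73 (in WT), Eif4g2 to -0.084 (footprints relative to RNA) and Eif4h to -0.73 (footprints over RNA in DKO) and -0.56 (in WT). TMM within each assay turned footprints over RNA of Eif4e2 to -0.19 in DKO and -0.12 in WT, of Eif4ebp1 to -0.091 in DKO and of Pabpc1 to -0.093 in WT. No filter turned Eif4a2 to 0.013 in DKO and 0.0033 in WT, Pabpc1 to 0.018 in DKO and Eif4g2 relative to RNA to -0.0023. DESeq2 and RLE scaling turned the last to -0.0028, and limma-voom turned Pabpc1 in DKO to 0.013. The isoform alternative counts other transcripts by construction; for the rest the cause was not tested. Among these sign changes, only those of Eif4a2 and Eif4h in footprints over RNA with coding isoforms were called.

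Leaving out each library or culture in turn gave the following ranges of log2 values where the sign changed or a call was gained or lost. In footprints (DKO over WT) they were Eif4a1 -0.059 to 0.13, Eif4a2 -0.13 to 0.27, Eif4b -0.12 to 0.23, Eif4e -0.27 to 0.27, Eif4e2 -0.098 to 0.18, Eif4ebp1 -0.12 to 0.54, Eif4ebp2 -0.21 to 0.10 and Pabpc1 -0.089 to 0.016. In RNA (DKO over WT) they were Eif4a1 -0.091 to 0.10, Eif4a2 -0.067 to 0.17, Eif4ebp2 -0.084 to 0.52, Eif4h -0.088 to 0.074 and Pabpc1 -0.12 to 0.35. In footprints relative to RNA (DKO over WT) they were Eif4a1 -0.094 to 0.19, Eif4a2 -0.16 to 0.23, Eif4b -0.27 to 0.084, Eif4e -0.16 to 0.51, Eif4e2 -0.20 to 0.080, Eif4ebp1 -1.16 to 0.15, Eif4ebp2 -0.59 to 0.095, Eif4g2 -0.076 to 0.069, Eif4h -0.17 to 0.078 and Pabpc1 -0.40 to 0.080. In footprints over RNA in DKO they were Eif4a2 -0.069 to 0.0044, Eif4e2 -0.085 to 0.19, Eif4ebp1 -0.23 to 0.71, Eif4ebp2 0.85 to 1.46 and Pabpc1 -0.24 to 0.22. In footprints over RNA in WT they were Eif4a2 -0.26 to 0.13, Eif4e2 -0.0083 to 0.22, Eif4ebp1 0.10 to 1.29 and Pabpc1 -0.021 to 0.34. Eif4ebp1, with 34 to 339 counts a library, had the widest intervals of the 10.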
